A study of Mus musculus with 5 samples.

Results

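The nicotinic acetylcholine receptor subunits were followed in sympathetic neurons of mouse embryos that lacked or kept the transcription factor subunit *Hif1a*. The set was fixed by name and held 10 genes, the neuronal subunits *Chrna3*, *Chrna4*, *Chrna5*, *Chrna6*, *Chrna7*, *Chrnb2*, *Chrnb3* and *Chrnb4* and the muscle subunits *Chrna1* and *Chrnb1*. Of these 10 genes, 7 had a row in the count table, and all 7 passed the filter on low counts. *Chrna6*, *Chrnb3* and *Chrna1* had no row in the table used here, and neither did any of the other 6 subunit genes of the family, *Chrna2*, *Chrna9*, *Chrna10*, *Chrnd*, *Chrng* and *Chrne*. The table held 20224 genes, of which 15032 were tested.

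The libraries were bulk RNA-seq of the stellate ganglia and thoracic sympathetic chain of embryos at embryonic stage E14.5 from non-diabetic pregnancies. Each library held 100 cells sorted for 2 fluorescent proteins, eGFP from the *Prph*-eGFP transgene, which marks peripheral neurons, and tdTomato from the *Ai14* reporter, which marks cells with a history of *Isl1*-Cre. There were 2 control libraries (replicates 5 and 6), in which 1 *Hif1a* allele was floxed (*Hif1a* loxP/+; *Isl1Cre*; tdTomato*Ai14*), and 3 *Hif1aCKO* libraries (replicates 3, 4 and 5), in which both were (*Hif1a* loxP/loxP; *Isl1Cre*; tdTomato*Ai14*). The controls therefore carried Cre and a heterozygous deletion as well, and *Isl1Cre* is a knock-in at *Isl1*, so every cell sorted had a Cre insertion at that gene. The genotype comparison asked how the loss of *Hif1a* changed expression in these neurons, with no diabetic libraries.

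Nicotinic receptors are pentamers of subunits around a cation channel that opens when acetylcholine binds. In sympathetic ganglia they carry fast transmission from the preganglionic fibre to the postganglionic neuron, and the α3 and β4 subunits form the main ganglionic receptor, which can take up α5 as an accessory subunit. The α7 subunit forms receptors on its own, α4 and β2 form the most common receptor of the brain, and α1, β1, δ and γ or ε form the receptor of the muscle end plate.

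Total counts were between 8254211 and 9700887 per library. Values below are given for control replicates 5 and 6, then for the 3 *Hif1aCKO* libraries in the order of replicates 3, 4 and 5, as normalized counts, which are counts scaled to a common library size. *Hif1a* itself had 2086 and 1584 in the controls and 2747, 1757 and 2135 in the *Hif1aCKO* libraries, and the groups overlapped. Only exon 2 is floxed, and counts summed over the gene cannot show its loss. *Isl1* was lower in all *Hif1aCKO* libraries, with 12580 and 14020 against 8634, 7800 and 8722 normalized counts (log2 fold change -0.67, adjusted p = 0.446 by the edgeR quasi-likelihood test and adjusted p = 0.0001242 by DESeq2). *Xist*, which is transcribed from the inactive X chromosome, had 3974 counts in control replicate 5, 4597 in *Hif1aCKO* replicate 3 and at most 3 in the others. *Prph*, whose promoter drives the sorted eGFP, had 4483 and 5966 against 6541, 5927 and 4970 normalized counts. Defining Schwann cell precursor genes stood apart in *Hif1aCKO* replicate 3, where the 4 measured markers summed to 1067 counts against 33 to 53 in the other libraries.

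The subunits differed widely in level. In CPM per kb of exon, which is the count scaled to library size and divided by exon length, *Chrna3* was at 43.0 ± 11.2 (SD, n = 5 libraries), *Chrnb4* at 12.8 ± 5.63, *Chrnb2* at 7.34 ± 0.455 and *Chrna7* at 6.26 ± 3.10. *Chrna4* was at 2.15 ± 0.848, *Chrna5* at 2.07 ± 1.55 and *Chrnb1* at 0.407 ± 0.433 on the same per-length scale. *Chrna3* was above *Chrnb4* in 5 of 5 libraries, with a ratio of means of 3.37, and *Chrnb4* was above *Chrnb2* in 5 of 5 with a ratio of 1.74, and in neither pair did the ranges overlap. The next neighbours in the order were closer or more variable. *Chrnb2* was above *Chrna7* in 4 of 5 libraries with overlapping ranges, and the order of their means turned when the longest transcript was taken as gene length (9.61 for *Chrnb2* and 10.0 for *Chrna7*). *Chrna4* and *Chrna5* did not differ beyond their spread, with *Chrna4* higher in 2 of 5 libraries. *Chrna7* was above *Chrna4* in 5 of 5 libraries and *Chrna5* above *Chrnb1* in 5 of 5, although the ranges over libraries overlapped in both pairs.

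**Figure D1:**
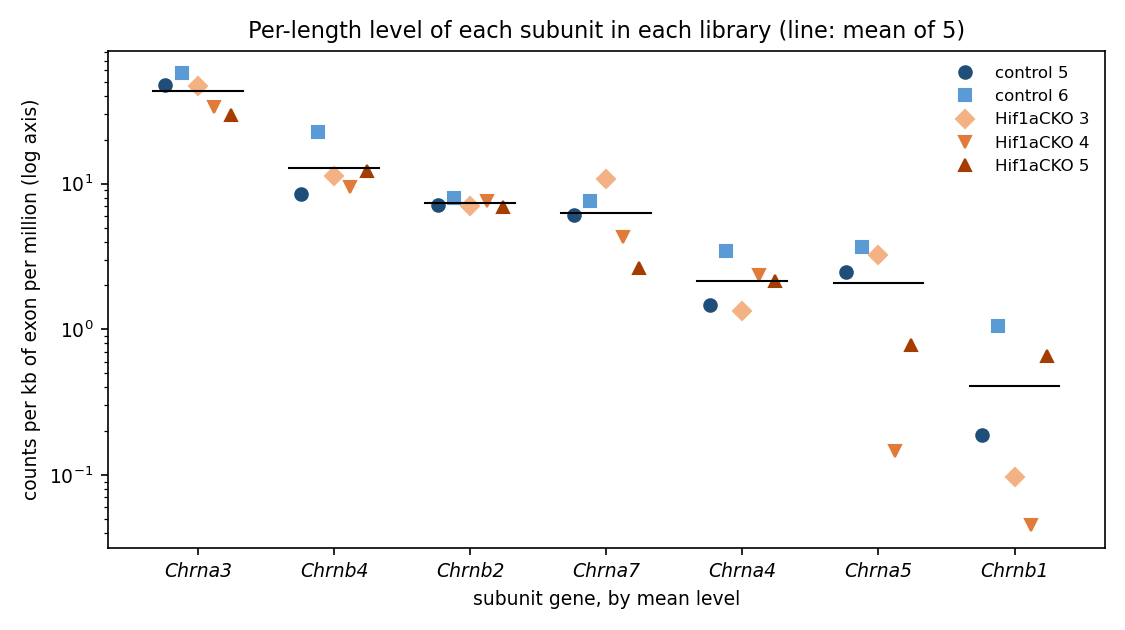
Per-length level of the 7 measured subunits in each library, in CPM per kb of exon on a log axis, with the mean of 5 libraries as a line. *Chrna3* lies above all other subunits in every library, between 29.8 and 57.3, and the points of *Chrna5* and *Chrnb1* spread most on the log axis.

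*Chrna3* took 58.2% ± 4.13 (SD, n = 5) of the summed per-length level of the 7 subunits, and its share was 64.7% and 55.3% in the controls and 58.4%, 58.4% and 54.1% in the *Hif1aCKO* libraries. *Chrnb4* took 17.2% ± 4.64, so these ganglionic α and β genes made up most of the subunit RNA in both genotypes. *Chrnb2* contributed 10.4%, *Chrna7* 8.23%, *Chrna4* 3.00%, *Chrna5* 2.53% and *Chrnb1* 0.533%. Among all 20195 genes with a length, 92.8% had a lower mean per-length level than *Chrna3*, against 78.9% for *Chrnb4* and 23.0% for *Chrnb1*.

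The stretches before the start sites of 3 subunits are given for reference, since no binding was measured in this series. *Chrna3* is shown as the subunit with the highest level, and *Chrna7* and *Chrnb2* because their windows hold ACGTG, a core of the element that HIF-1 binds. Capitals mark each match to ACGTG or GCGTG, or to GGGCGG, the GC box of Sp factors, on either strand. The sequences are from RefSeq on GRCm38.p6 and run 5′ to 3′ on the strand of the gene.

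*Chrna3*, chr9:55026563-55026812, minus strand: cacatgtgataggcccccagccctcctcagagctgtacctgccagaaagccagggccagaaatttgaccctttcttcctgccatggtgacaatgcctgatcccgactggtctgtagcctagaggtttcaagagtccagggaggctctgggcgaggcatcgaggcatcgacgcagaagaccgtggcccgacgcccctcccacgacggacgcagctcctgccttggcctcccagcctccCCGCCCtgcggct

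*Chrnb2*, chr3:89764633-89764882, minus strand: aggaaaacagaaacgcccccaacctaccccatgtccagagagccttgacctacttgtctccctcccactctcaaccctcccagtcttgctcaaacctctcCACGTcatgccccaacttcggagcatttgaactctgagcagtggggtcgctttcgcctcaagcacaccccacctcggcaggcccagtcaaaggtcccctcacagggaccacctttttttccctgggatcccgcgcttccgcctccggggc

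*Chrna7*, chr7:63212570-63212776, minus strand: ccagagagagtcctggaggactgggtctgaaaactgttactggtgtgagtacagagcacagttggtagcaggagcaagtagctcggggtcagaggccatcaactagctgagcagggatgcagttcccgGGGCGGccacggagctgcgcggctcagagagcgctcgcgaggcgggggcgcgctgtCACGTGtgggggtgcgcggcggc

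Distances are counted from the RefSeq start. The stretch of *Chrna7* is printed without the 43 bases next to that start, which lie in an annotated exon, whereas the others run up to the start. In *Chrna7* the letters CACGTG read ACGTG on both strands, 66 and 65 bases before the start, with a GGGCGG at 122 bases. The match of *Chrnb2* lies on the opposite strand at 150 bases, and that of *Chrna3* to GGGCGG, also on the opposite strand, at 13 bases. *Chrnb4* had a GCGTG at 212 bases on the opposite strand and a CAGCTG, an E-box of the kind that basic helix-loop-helix factors bind, at 14 bases, in a window that mostly lies in annotated exons and is not printed. All 7 measured subunits had a RefSeq window of 250 bases, and *Chrna5* had 2. ACGTG or GCGTG occurred in 3 of these 8 windows, against 38.6% of all 32851 windows of this length. GGGCGG occurred in 5 of 8 (*Chrna3*, *Chrna4*, *Chrna5*, *Chrna7* and *Chrnb1*) against 32.7%, and CAGCTG in 1 of 8 against 13.0%. These counts were not tested, and a match is a description of letters.

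*Chrna3*, the α subunit of the ganglionic receptor (ENSMUSG00000032303, chr9:55010111-55026562 on GRCm38, minus strand), was the subunit with the clearest difference between genotypes. Its normalized counts were 2179 and 2637 in the controls and 2173, 1546 and 1372 in the *Hif1aCKO* libraries. Both controls lay above all 3 *Hif1aCKO* libraries, but control replicate 5 and *Hif1aCKO* replicate 3 were almost equal. The means were 2408 ± 324 (SD, n = 2) and 1697 ± 422 (SD, n = 3), a log2 fold change of -0.51 (SE 0.21, 95% interval -0.99 to -0.019). In the edgeR quasi-likelihood test the unadjusted p was 0.0434, and the adjusted p over all genes tested by the Benjamini-Hochberg method was 0.637, so the gene was not called. The exact two-sided permutation test of the 5 libraries gave p = 0.2, and 0.1 is the smallest this design allows. Leaving out 1 library moved the log2 fold change to values from -0.72 to -0.37. The unadjusted p fell to 0.0029 without *Hif1aCKO* replicate 3 (adjusted p = 0.306). It rose to 0.226 without control replicate 6, 0.0992 without *Hif1aCKO* replicate 4 and 0.127 without *Hif1aCKO* replicate 5. Most sympathetic neuron markers had fold changes of the same sign as *Chrna3*. Of 12 markers tested, 8 had a log2 fold change below 0 (48.7% of all genes tested) and 6 were lower in all *Hif1aCKO* libraries (12.9% of all genes). An unadjusted p under 0.05 was found for 4 in the lower direction (3.85% of all genes) and for 1, *Hand2*, in the higher, with a median of -0.26 and an adjusted p under 0.05 for 0 of 12. The 4 were *Th*, the rate-limiting enzyme of catecholamine synthesis (log2 fold change -1.37, unadjusted p = 0.00405, adjusted p = 0.586), *Slc18a2*, the vesicular monoamine transporter (-0.58), *Dbh*, which forms noradrenaline (-0.32), and *Stmn2*, a neuronal microtubule regulator (-0.30). *Th* had 2998 and 6985 normalized counts in the controls and 1682, 1515 and 2582 in the *Hif1aCKO* libraries, so the controls differed widely. *Stmn2* had 21380 and 27400 against 21110, 18740 and 19440, with control replicate 5 close to *Hif1aCKO* replicate 3. The part of these markers in the difference of *Chrna3* was not tested. Since the samples are bulk libraries, fewer cells with a transcript and less of it per cell cannot be told apart, here and for every gene below.

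*Chrnb4*, the β subunit of the same receptor (ENSMUSG00000035200, chr9:55028154-55048779, minus strand), varied more between the controls than between the genotypes. Its normalized counts were 276 and 733 in the controls and 367, 309 and 395 in the *Hif1aCKO* libraries. The 3 *Hif1aCKO* libraries thus lay between the controls, and control replicate 6 stood above all others. The means were 504 ± 323 (SD, n = 2) and 357 ± 44.1 (SD, n = 3), and the log2 fold change was -0.50 (SE 0.37, 95% interval -1.35 to 0.35, adjusted p = 0.777). Without control replicate 6 it turned to 0.36, and without control replicate 5 it was -1.04.

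*Chrna5*, the accessory subunit (ENSMUSG00000035594, chr9:54980880-55007779, plus strand), differed widely within the *Hif1aCKO* group. It had 67.7 and 101 normalized counts in the controls and 89.0, 3.99 and 21.4 in the *Hif1aCKO* libraries. *Hif1aCKO* replicate 3 lay between the controls, while replicates 4 and 5 lay below both. The 4 counts in *Hif1aCKO* replicate 4 have an exact 95% Poisson interval of 1.09 to 10.2 counts, which covers counting error only, and the 65 counts in control replicate 5 one of 50.2 to 82.9. The log2 fold change was -1.15 (SE 0.97, 95% interval -3.39 to 1.09, adjusted p = 0.815), with -2.72 without *Hif1aCKO* replicate 3 and -0.62 without replicate 4. The level in *Hif1aCKO* replicate 3 was 7.01-fold that of the mean of replicates 4 and 5, the largest such gap among the 7 subunits. *Hif1aCKO* replicate 3 was also the library with the Schwann cell precursor counts. Within its group it alone had high *Xist* counts (4597), as control replicate 5 did among the controls (3974). The part of either in the gap was not tested.

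These 3 genes lie next to each other on chromosome 9. *Chrna5* and *Chrna3* are transcribed toward each other, and *Chrnb4* lies beyond the start of *Chrna3* on its strand. The 4 other protein-coding genes within 100 kb, *Ireb2*, *Hykk*, *AY074887* and *Psma4*, had log2 fold changes with a median of -0.013, 2 below and 2 above 0, and none had an unadjusted p under 0.05. *Psma4*, a proteasome subunit, had 1907 and 1884 normalized counts in the controls and 1966, 1634 and 2192 in the *Hif1aCKO* libraries. *Ireb2*, an iron-responsive RNA-binding protein, had 1120 and 1561 against 1439, 1685 and 1148. The spread of *Hykk* was wider, with 59.4 and 64.0 against 102, 35.0 and 26.3 normalized counts, the highest value again in *Hif1aCKO* replicate 3.

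*Chrna7*, the subunit of the α7 receptor (ENSMUSG00000030525, chr7:63098692-63212569, minus strand), followed the same order of libraries as *Hykk* within the *Hif1aCKO* group. Its normalized counts were 239 and 301 in the controls and 421, 171 and 103 in the *Hif1aCKO* libraries. The highest and the 2 lowest libraries were all *Hif1aCKO*, so the groups overlapped. The log2 fold change was -0.22 (SE 0.53, 95% interval -1.43 to 0.99, adjusted p = 0.953). It ranged from -0.98 without *Hif1aCKO* replicate 3 to 0.13 without *Hif1aCKO* replicate 5, so its sign rested on single libraries.

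*Chrnb2*, the β subunit of the α4β2 receptor (ENSMUSG00000027950, chr3:89746195-89764632, minus strand), was the steadiest subunit. It had 523 and 588 normalized counts in the controls and 513, 556 and 511 in the *Hif1aCKO* libraries. The groups overlapped, and the log2 fold change was -0.077 (SE 0.18, 95% interval -0.48 to 0.33, adjusted p = 0.950). Of its exonic bases, 16.3% are shared with *Adar* on the opposite strand, and reads there cannot be assigned to either gene without strand. *Chrna4*, its α partner (ENSMUSG00000027577, chr2:181018380-181043546, minus strand), had 64.6 and 152 normalized counts in the controls and 59.0, 103 and 94.4 in the *Hif1aCKO* libraries. Its controls were the second lowest and the highest of the 5 libraries. The log2 fold change of *Chrna4* was -0.34 (SE 0.48, 95% interval -1.44 to 0.76, adjusted p = 0.904), and it turned to 0.40 without control replicate 6.

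*Chrnb1* (ENSMUSG00000041189, chr11:69784036-69795943, minus strand), the only subunit of the muscle receptor with a row, was close to the lower limit of the counts. It had 4 and 25 counts in the controls and 2, 1 and 15 in the *Hif1aCKO* libraries, which overlap. The log2 fold change was -1.19 (SE 1.37, 95% interval -4.33 to 1.95, adjusted p = 0.880), and it turned to 0.49 without control replicate 6. Of 12 skeletal muscle markers 7 had no row, among them the muscle regulators *Myod1*, *Myf5* and *Myog*, and the 5 with a row summed to 118 and 199 counts in the controls and 141, 201 and 200 in the *Hif1aCKO* libraries.

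**Figure D2:**
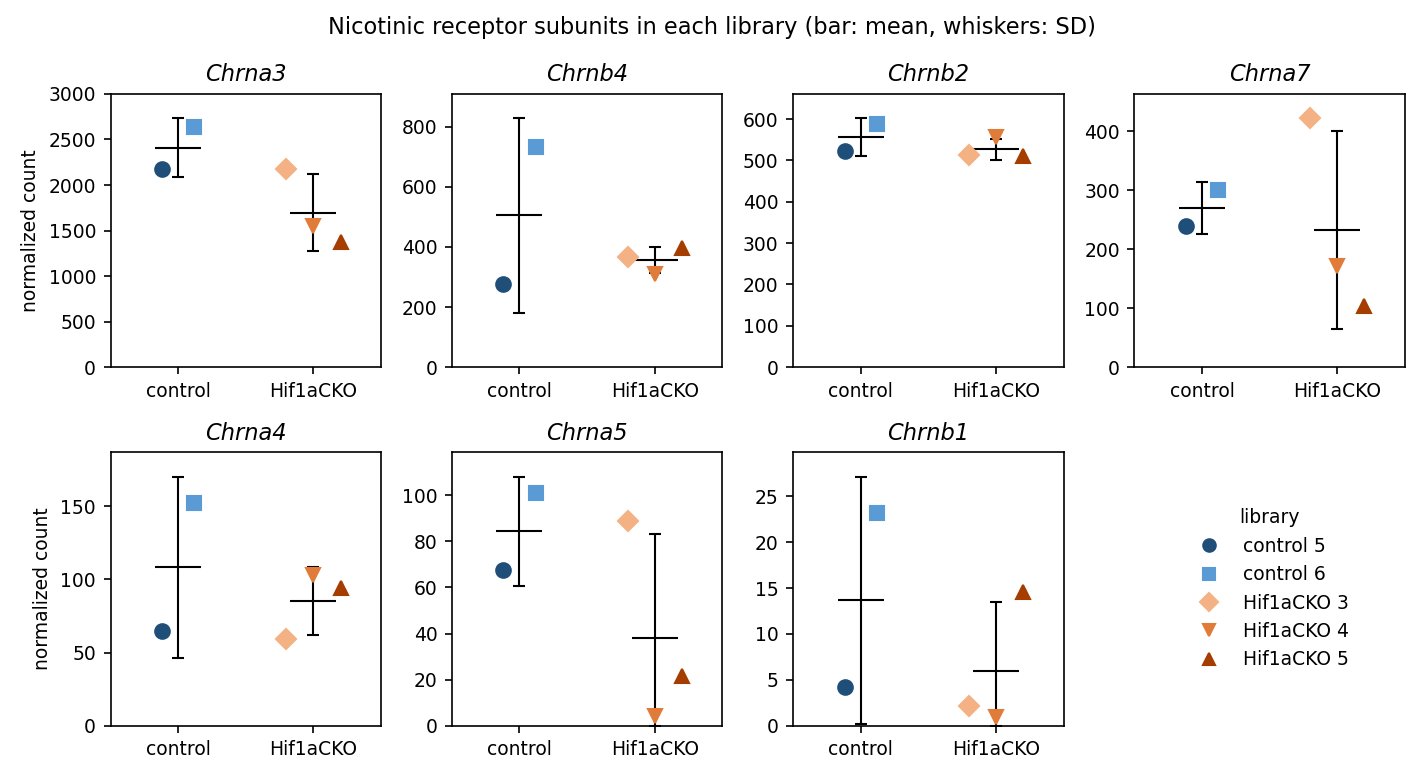
Normalized counts of the 7 subunits in each library by genotype, with the mean as a bar and the SD as whiskers (control n = 2, *Hif1aCKO* n = 3, whiskers ending at 0 where the SD exceeds the mean). Control replicate 6 is the highest library for 6 of 7 subunits, and the groups are separate in *Chrna3* alone.

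All 7 measured subunits had a log2 fold change below 0, with a median of -0.50, whereas 48.7% of the genes tested were below 0, with a median of 0.012. With 1 unadjusted p under 0.05, that of *Chrna3*, the members stood beside 3.85% of all genes with such a p in the lower direction. The genotypes were separate for 1 of 7 members, again *Chrna3*, and for 25.7% of all genes, 12.9% in the lower direction. None of the 7 was called at an adjusted p under 0.05, as 0% of all genes were: the edgeR quasi-likelihood test called 0 of 15032, with 1153 (7.67%) at an unadjusted p under 0.05. DESeq2 called 57 genes (0.379%), none of them a member, with 8.74% at an unadjusted p under 0.05, and gave *Chrna3* a log2 fold change of -0.50 (unadjusted p = 0.0198, adjusted p = 0.405).

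The subunits also differed between the 2 controls. Control replicate 6 was above control replicate 5 for 7 of 7 subunits, although over all genes tested 7484 were above and 7494 below. The fold between the controls was 1.125 for *Chrnb2*, 1.21 for *Chrna3*, 1.26 for *Chrna7* and 1.49 for *Chrna5*. It was 2.36 for *Chrna4*, 2.66 for *Chrnb4* and 5.57 for *Chrnb1*, the last from 4 and 25 counts. Control replicate 6 was also the library with most counts of sympathetic neuron markers, 98192 over 12 genes against 65565 to 69231 in the others. These sums were not scaled to library size, and control replicate 6 also had the most total counts, 9700887 against 8254211 to 8871935. The part of the marker difference in the subunit values was not tested. Without this library the log2 fold change turned positive for 4 of 7 subunits, *Chrnb4*, *Chrna4*, *Chrnb2* and *Chrnb1*, and that of *Chrna3* was -0.37.

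**Figure D3:**
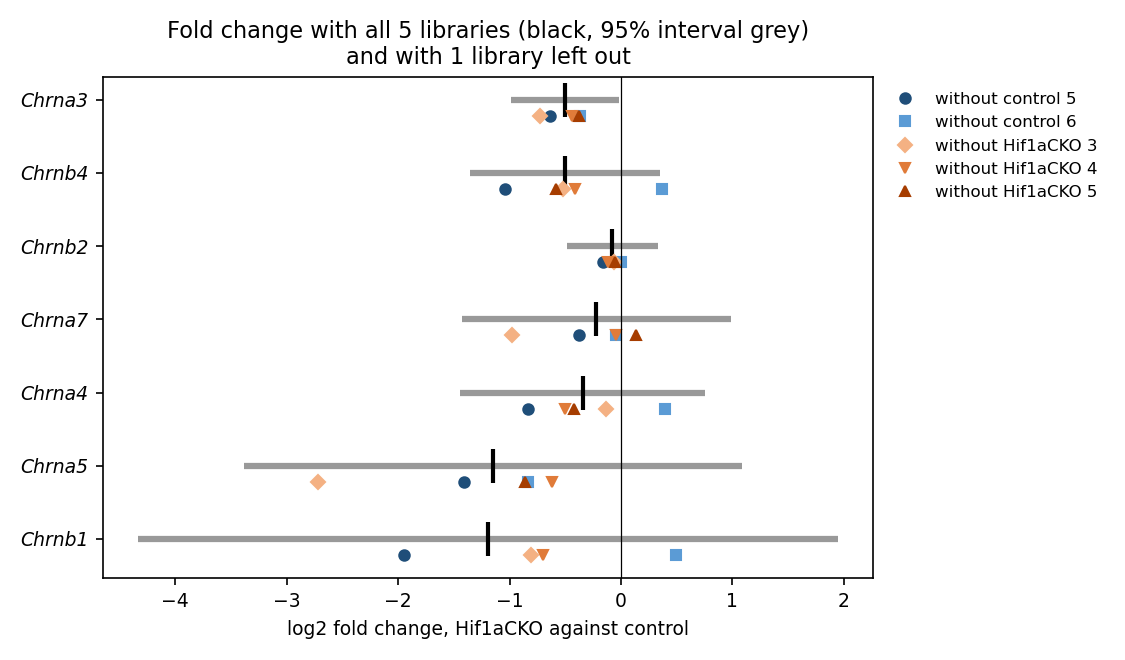
Log2 fold change of *Hif1aCKO* against control for the 7 subunits with all 5 libraries (black mark, grey 95% interval) and with each library left out (symbols). The squares, which leave out control replicate 6, lie above 0 for *Chrnb4*, *Chrnb2*, *Chrna4* and *Chrnb1*, and only the interval of *Chrna3* ends below 0. *Chrnb1* was not tested without *Hif1aCKO* replicate 5.

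The libraries could also be compared within the classes set by *Xist*. In the pair with *Xist* counts, control replicate 5 and *Hif1aCKO* replicate 3, *Chrna3* was at 2179 and 2173 normalized counts, a log2 ratio of -0.004. The ratio was above 0 for 3 of 7 subunits in this pair, *Chrna5* (0.39), *Chrnb4* (0.41) and *Chrna7* (0.82). Among the libraries without *Xist*, control replicate 6 was above the mean of *Hif1aCKO* replicates 4 and 5 for 7 of 7. The log2 ratios ran from -0.14 for *Chrnb2* and -0.625 for *Chrna4* to -0.85 for *Chrna3*, -1.06 for *Chrnb4* and -1.13 for *Chrna7*. They were largest for the low genes *Chrnb1* (-1.57) and *Chrna5* (-2.99, from 4 and 22 counts in *Hif1aCKO* replicates 4 and 5). With 1 control in each class these ratios have no test. With a term for *Xist* beside genotype, the log2 fold change of *Chrna3* was -0.50 (unadjusted p = 0.0487).

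Ratios between subunits within a library do not depend on its scaling. *Chrna3* to *Chrnb4*, per length, was 5.58 and 2.55 in the controls and 4.19, 3.54 and 2.46 in the *Hif1aCKO* libraries. The controls spanned nearly the whole range, and the genotypes overlapped. *Chrna3* to *Chrna5* had log2 ratios of 4.26 and 3.95 in the controls and 3.86, 7.84 and 5.25 in the *Hif1aCKO* libraries, where 7.84 rests on the 4 counts of *Chrna5* in replicate 4. *Chrna3* to *Chrnb2* was 6.63 and 7.14 in the controls, 6.75 in *Hif1aCKO* replicate 3 and 4.42 and 4.28 in replicates 4 and 5. *Hif1aCKO* replicate 3 thus lay with the controls in this ratio and outside the other *Hif1aCKO* libraries. *Chrna3* to *Chrna7* was 7.82 and 7.51 against 4.41, 7.75 and 11.4. For all 5 ratios examined the genotypes overlapped.

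**Figure D4:**
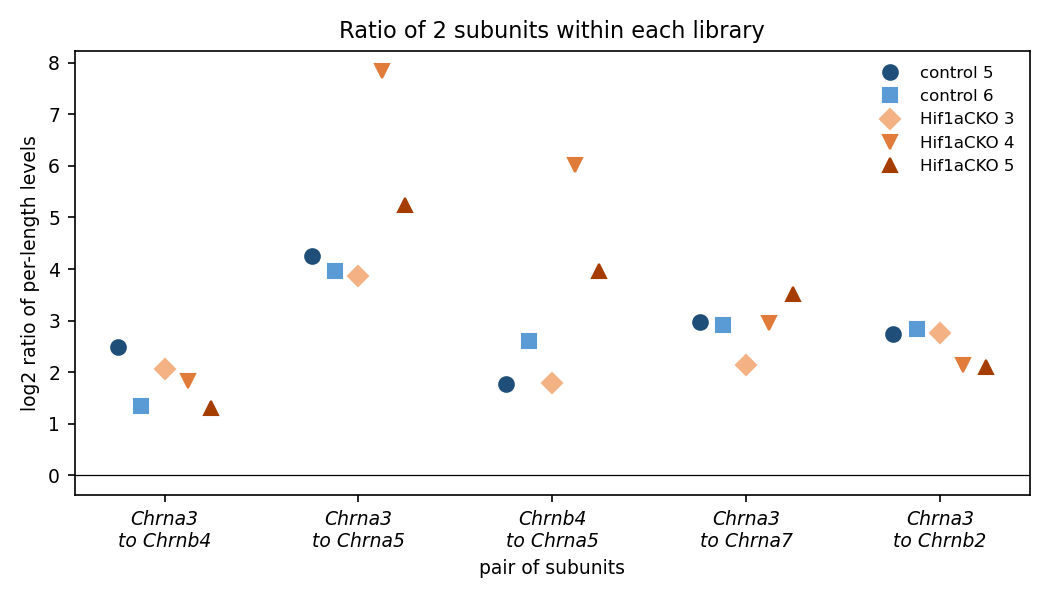
Log2 ratio of the per-length levels of 2 subunits in each library, for 5 pairs. The ratios with *Chrna5* are highest in *Hif1aCKO* replicates 4 and 5, while *Hif1aCKO* replicate 3 lies below or between the controls there, and the genotypes overlap in every pair.

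Genes for proteins that fold and assemble the receptor, or that are accessory to it, showed no common direction. Of 15 listed assembly and accessory genes 10 were tested, 4 below and 6 above 0, with a median log2 fold change of 0.058. *Ric3* and *Tmem35a*, chaperones of the α7 receptor, had 419 and 530 against 424, 615 and 613 and 274 and 364 against 432, 342 and 312 normalized counts. *Canx*, the endoplasmic reticulum chaperone calnexin, was at 8767 and 9827 in the controls and 8992, 6814 and 8919 in the *Hif1aCKO* libraries. *Rer1*, a retention receptor of the early secretory pathway, had 1714 and 1860 against 1837, 1582 and 1809, and *Lypd1*, a Ly6-type protein that binds nicotinic receptors, 1469 and 1430 against 1969, 1368 and 1025. Both overlapped. *Ly6h*, another protein of the Ly6 type, had 24 and 12 counts in the controls and 90, 62 and 36 in the *Hif1aCKO* libraries, and was the only one of the list with an unadjusted p under 0.05 (log2 fold change 1.83, SE 0.70, unadjusted p = 0.031, adjusted p = 0.621). Among all genes, 3.83% were past this unadjusted threshold in the higher direction.

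Genes that make, load and degrade the transmitter had the lowest median of the lists. Of 7 listed genes 6 were tested, 4 below and 2 above 0, with a median of -0.91. *Slc18a3*, the vesicular acetylcholine transporter, had 611 and 839 normalized counts in the controls and 285, 266 and 525 in the *Hif1aCKO* libraries, with no overlap (log2 fold change -1.02, SE 0.32, unadjusted p = 0.0122, adjusted p = 0.599). *Ache*, acetylcholinesterase, had 206 and 259 against 165, 128 and 103, again with no overlap (log2 fold change -0.82, SE 0.31, unadjusted p = 0.0307, adjusted p = 0.621). Neither gene was called. Over the 6 genes tested, the groups were separate in the lower direction for 2 and in the higher for 1, each against 12.9% of all genes. The 1 in the higher direction was *Bche*. Control replicate 6 and *Hif1aCKO* replicate 5 each had 1 count of it, so the groups were separate only through scaling (0.9275 and 0.973 normalized counts). *Slc18a3*, *Ache* and *Bche* also had an unadjusted p under 0.05, against 3.85% of all genes in the lower direction and 3.83% in the higher. *Chat*, the synthetic enzyme, had 54.2 and 49.2 against 12.9, 51.9 and 12.7 normalized counts, and the groups overlapped. *Slc5a7*, of the same list, had 19.79 and 55.65 against 0, 43.94 and 0 and overlapped too (log2 fold change -1.36, SE 1.69). Low and variable genes thus entered the median. *Prima1*, which anchors acetylcholinesterase in the membrane, had 369 and 276 against 420, 308 and 390. *Bche*, butyrylcholinesterase, had 0 and 1 counts in the controls and 139, 44 and 1 in the *Hif1aCKO* libraries, so its counts came from *Hif1aCKO* replicates 3 and 4. Its unadjusted p was 0.0119 and its adjusted p 0.599 by edgeR. By DESeq2 the adjusted p was 0.049, but its mean count was below the threshold for a call.

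Muscarinic receptors, the metabotropic receptors for acetylcholine, had 2 of 5 genes in the table, *Chrm1* and *Chrm2*. Both were low, with at most 47.9 normalized counts in a library, and neither had an unadjusted p under 0.05. Of 6 genes that cluster acetylcholine receptors at the end plate 3 were tested. *Rapsn*, the scaffold, had at most 16.7 normalized counts in a library, and *Dok7* at most 22.9. Both had a log2 fold change below 0, -0.41 for *Rapsn* and -0.90 for *Dok7*. The groups overlapped for *Rapsn*. *Dok7* was lower in all *Hif1aCKO* libraries, as were 12.9% of all genes, with an unadjusted p of 0.359 by the edgeR quasi-likelihood test. *Agrn*, the secreted organizer agrin, had 415 and 454 normalized counts in the controls and 516, 843 and 759 in the *Hif1aCKO* libraries, which did not overlap (log2 fold change 0.70, SE 0.24, unadjusted p = 0.019, adjusted p = 0.621). Among all genes, 12.9% were separate in the higher direction and 3.83% had an unadjusted p under 0.05 there.

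Of 9 listed transcription factors that act on subunit genes or in sympathetic neurons 8 were tested, 3 below and 5 above 0, with a median log2 fold change of 0.47. The groups were separate in the higher direction for 3 (12.9% of all genes) and in the lower for 0. An unadjusted p under 0.05 was found for 2 in the higher direction (3.83% of all genes). *Gata3* had 11640 and 12360 normalized counts in the controls and 11980, 9692 and 10350 in the *Hif1aCKO* libraries. *Hand2*, a basic helix-loop-helix factor of sympathetic neurons, had 1292 and 1090 against 1486, 1974 and 1911 with no overlap (log2 fold change 0.59, SE 0.18, unadjusted p = 0.0113, adjusted p = 0.599). *Sp3*, a factor that binds GC boxes, had 754 and 604 against 856, 943 and 1056 with no overlap (log2 fold change 0.49, unadjusted p = 0.0294, adjusted p = 0.621). The GC box windows of *Chrna3* and *Chrna7* are those printed above, and no relation to *Sp3* was measured.

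**Figure D5:**
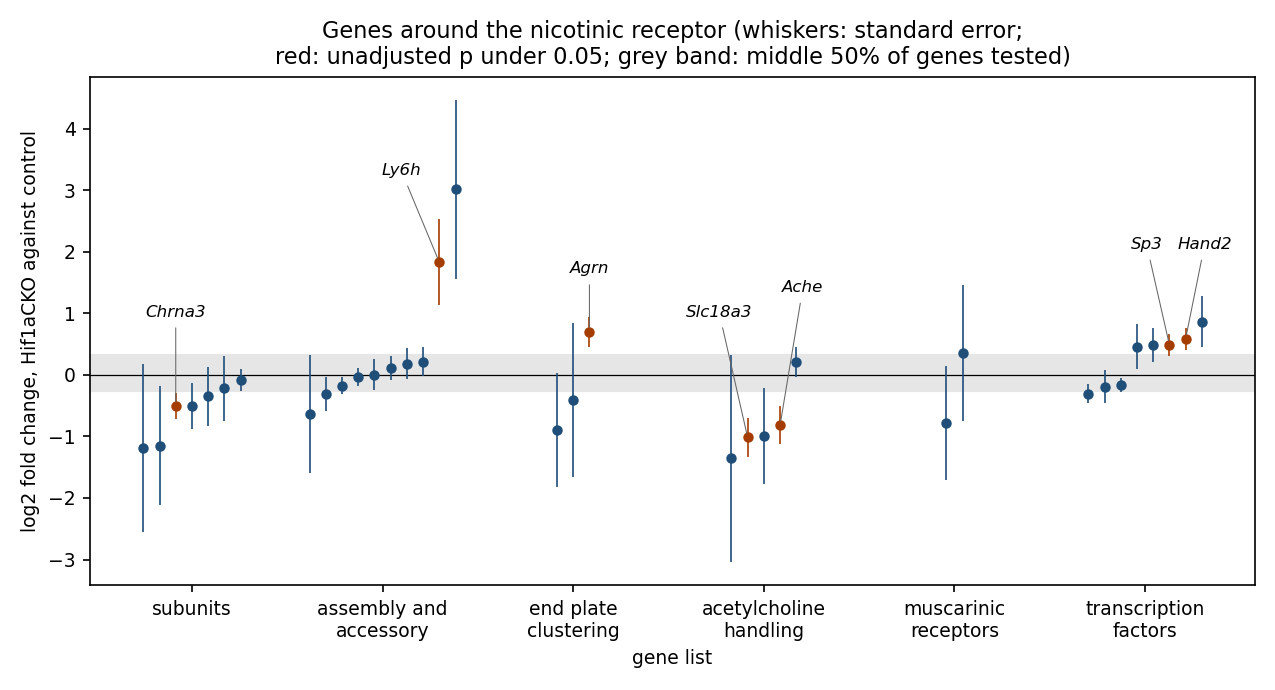
Log2 fold change (Hif1aCKO against control) with its standard error for the tested subunits and 5 lists of genes around the receptor, with unadjusted p under 0.05 in red and the middle 50% of all genes tested as a grey band (-0.27 to 0.32). *Bche* is left out, since its controls had 0 and 1 counts. All 7 subunits lie below 0, whereas the assembly genes lie on both sides.

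Markers of other cells that use nicotinic subunits differed in level. The motor neuron markers *Mnx1* and *Lhx3* had no row, and the 3 of 5 with a row summed to 76 and 84 counts in the controls and 63, 62 and 17 in the *Hif1aCKO* libraries. *Pou4f1*, which defines sensory neurons, had between 2 and 5 counts per library, and most of the 420 to 870 sensory marker counts per library were those of *Ntrk3*. The 5 chromaffin cell markers summed to 11017 and 10200 counts in the controls and 15881, 15811 and 23107 in the *Hif1aCKO* libraries. Most of them were counts of *Cartpt*, a neuropeptide precursor, with 7345 and 6731 counts in the controls and 12533, 11326 and 18491 in the *Hif1aCKO* libraries (log2 fold change 1.04, adjusted p = 0.562 by edgeR and 0.0001242 by DESeq2). *Gata2*, a transcription factor that sympathetic neurons also express, was higher in all *Hif1aCKO* libraries too (log2 fold change 0.89, adjusted p = 0.586 by edgeR and 0.00298 by DESeq2). *Pnmt*, the adrenaline-forming enzyme that defines chromaffin cells, went the other way. It had 28 and 55 counts against 17, 3 and 11 and was lower in all *Hif1aCKO* libraries (log2 fold change -1.91, adjusted p = 0.681 by edgeR and 0.628 by DESeq2). *Chga* overlapped between the groups (log2 fold change 0.0077), and *Htr3a* had at most 15 counts in a library. The markers of this list thus had no common direction. Whether chromaffin cells had a part in the subunit values was not tested.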

How the data were processed

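Per the labels and the study's methods, reads of each library were trimmed with cutadapt (version 1.18) and Trimmomatic, filtered with Bowtie (version 1.2.2) and SortMeRNA, mapped to GRCm38 with STAR (version 2.7.0c) and counted per gene with Rsubread, without multi-mapping reads. The deposited table holds these raw counts, with no normalization by the authors. Duplicate molecules were not marked by identifiers, so intervals from counts cover counting error only.

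Ensembl identifiers were matched to symbols, exons and positions in GENCODE release M21 on GRCm38. Genes were kept with filterByExpr, scaled with TMM and tested with the edgeR (version 4.0.16) quasi-likelihood test, genotype being the only term, with Benjamini-Hochberg adjustment over 15032 genes. The filter and the fit were tested on simulated data. Calls needed an adjusted p under 0.05, a log2 fold change beyond 0.3 in either direction and a mean of 50 or more normalized counts. Normalized counts were scaled to the mean effective library size. Per-length levels used the union of annotated exons. Exact two-sided permutation tests of single genes used all 5 libraries.

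Samples were grouped by the genotype in the labels, which call each library a biological sample without naming litters, so p-values measure the spread between these libraries. The named genes were all subunits, *Hif1a*, *Isl1* and *Prph*, protein-coding genes within 100 kb, and from each list the 3 with the highest counts and those with an unadjusted p under 0.05, of which 1 is not reported here. *Ric3*, *Tmem35a*, *Chat*, *Slc5a7* and the cell type markers were named for their roles or levels beside that rule, after their values were seen. Members and lists were chosen with earlier results of these data known. Alternatives were DESeq2 (version 1.42.0), limma-voom (limma version 3.58.1) with and without sample weights, a likelihood ratio test, other scalings and filters, each library left out, an *Xist* term and other thresholds.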

Additional observations from a re-analysis of the deposited data

How the results depend on the processing

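No subunit was called under any alternative tried, nor were any of the subunits called in the fits that called other genes: DESeq2 called 57 genes, the likelihood ratio test 40, and leaving out each library in turn gave 0 to 4, the 4 without control replicate 5. Of 95 alternative values of the 7 fold changes, 90 kept their direction and 5 turned. With each library left out, the log2 fold change ranged from -1.04 to 0.36 for *Chrnb4*, from -0.83 to 0.40 for *Chrna4*, from -0.16 to 0.0043 for *Chrnb2* and from -1.95 to 0.49 for *Chrnb1*, positive in each without control replicate 6, and from -0.98 to 0.13 for *Chrna7*, positive without *Hif1aCKO* replicate 5. The cause was not tested. *Chrna3* kept its direction in 14 of 14 alternatives, with adjusted p from 0.306 to 0.9995 and an unadjusted p under 0.05 in 11. *Chrna5* and *Chrnb1* could not be fitted with at least 10 counts in every library, nor *Chrnb1* without *Hif1aCKO* replicate 5.

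No paired analysis was possible because the groups share only replicate number 5. With 2 controls, leaving out 1 turned the sign of 4 subunits, and the low counts of *Chrna5* and *Chrnb1* limit their intervals.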
